A study of Arabidopsis thaliana with 8 samples.

Results

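Small RNA samples can be amplified for array hybridization either by transcription or by PCR, and the data examined here set these routes against each other on the same Arabidopsis silique RNA. The comparison took the hybridizations prepared from 50 ng of total RNA: 2 slides after 2 rounds of in vitro transcription (2IVT) and 2 slides after 20 cycles of PCR, which together are 4 of the 8 slides of the series. Of 26912 probes on the array, 21128 had a value on all 4 of these slides and made up the set tested. Each slide compared early siliques, harvested 2 to 5 days after pollination (DAP), with a 90%-late sample made of 90% siliques of 6 to 10 DAP and 10% early siliques of Arabidopsis thaliana, for which no genotype or accession is named in the labels. The remaining 4 slides, used only as an outside reference, carried the same comparison after 1 round of in vitro transcription (IVT) from 5 µg of RNA and without amplification from 30 µg.

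All 8 slides carried 1 pair of RNA samples, so the errors given below describe target preparation and hybridization and not plants. After 2IVT and after PCR alike, a single amplification of the 90%-late RNA was shared by both slides of the method. Only the early RNA was amplified separately for each slide. The errors therefore leave out that 90%-late amplification, and a deviation in it cannot be told apart from the method. Early target always carried Cy5 and 90%-late target Cy3, and therefore stage and dye were not separated. The 2IVT targets were on slides 36 and 37 and the PCR targets on slides 34 and 35, so that slide batch and method cannot be told apart. The values are log2 ratios of the channels with no intensities, which means that tissue markers could not be checked for presence. The sign is turned from the deposited direction throughout, so that a positive log2 ratio was higher in 90%-late and a negative one higher in early siliques. This direction is taken from the dyes in the labels.

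In vitro transcription copies cDNA from a T7 promoter and amplifies in a linear manner, and a second round starts from random priming of the first antisense RNA. PCR copies cDNA between common end sequences and amplifies exponentially, so small differences between templates in copying efficiency are repeated at each cycle. A silique is the seed pod of Arabidopsis. During the stages sampled here the endosperm and embryo pass from rapid early growth into the phase when seeds lay down oil bodies, storage proteins and late embryogenesis abundant (LEA) proteins, which accumulate before seeds dry.

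The stage ratios were wider after 2IVT than after PCR. The standard deviation of the mean log2 ratio over the 21128 probes was 0.73 after 2IVT and 0.453 after PCR, and the part of this spread shared by both slides of a method was 0.708 after 2IVT and 0.425 after PCR, a ratio of 0.6 for PCR over 2IVT. The slides of one method differed by a similar amount, with a between-slide standard deviation of 0.252 for 2IVT and 0.221 for PCR. Across probes, which are not independent replicates, the slides correlated with r = 0.889 after 2IVT and 0.786 after PCR, whereas the mean ratios of the methods correlated with each other with r = 0.472.

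A total of 4886 probes, 23.1% of those tested, had a stage ratio that differed between 2IVT and PCR (limma, Benjamini-Hochberg adjusted over all probes at a threshold of 0.05). Of these, 2419 probes (11.4%) lay further towards 90%-late after 2IVT than after PCR and 2467 (11.7%) lay further towards early. The slides of the methods did not overlap for 13556 probes, or 64.2%. These numbers moved when a slide was left out, but such a fit takes its spread from the 2 slides of the other method alone. A lost or gained call therefore does not tell the values of a slide apart from the change in spread. Without PCR replicate 1 the counts were 1030 and 716 in the same order, and without PCR replicate 2 they were 1002 and 709. For a single probe, an exact permutation test of 2 slides against 2 cannot go below p = 0.333 (two-sided), so the calls depend on the spread that the model shares among probes.

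More probes had a called stage difference after 2IVT than after PCR. Higher in 90%-late were 3778 probes (17.9%) after 2IVT and 2280 (10.8%) after PCR, and higher in early were 4698 (22.2%) after 2IVT and 2514 (11.9%) after PCR. Among probes that were called and changed at least 2-fold, 1441 (6.82%) were higher in 90%-late after 2IVT, against 529 (2.50%) after PCR, and 1182 (5.59%) were higher in early after 2IVT, against 233 (1.10%) after PCR. A called change of at least 2-fold was shared by 293 probes for 90%-late (1.39%) and by 94 for early (0.445%). When a slide was left out, the PCR counts moved more than the 2IVT counts, and the spread came from the slides of the other method alone. Without PCR replicate 1, PCR called 574 probes for 90%-late and 277 for early, and without PCR replicate 2 it called 431 and 176. Leaving out either 2IVT slide changed the shared estimate of the spread, after which PCR called 3257 and 3776.

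A stage difference was counted as reported by one method only when that method called it at 2-fold or more with the same sign on both slides, the other method gave less than 1.5-fold or the opposite sign with no call in the same direction, and the difference between the methods itself passed the test. By this definition 830 probes (3.93%) were higher in 90%-late only after 2IVT and 730 (3.46%) higher in early only after 2IVT. Only after PCR, 92 probes (0.435%) were higher in 90%-late and 47 (0.222%) higher in early. These 1699 entries came from 1696 probes, since 3 probes changed at least 2-fold in opposite directions and stand in a class of each method. Symbols were at hand for 432 and 451 of the 2IVT classes and for 43 and 20 of the PCR classes. Just inside the limit stood AAPT2, with mean log2 ratios of 1.001 after 2IVT and 0.37 after PCR, and AT2G40600, with -0.00 after 2IVT and 1.001 after PCR. Just outside stood AT3G16555, at 0.999 after 2IVT and 0.14 after PCR, and AT5G47550, at 0.16 after 2IVT and 0.999 after PCR.

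The balance between the methods in this count changed when their ratios were given the same width. As deposited, 91.8% of the one-method entries belonged to 2IVT and 8.18% to PCR. When the PCR ratios were stretched to the standard deviation of the 2IVT ratios, 610 and 495 probes were reported only by 2IVT and 451 and 506 only by PCR, for 90%-late and early in each case, which put 53.6% with 2IVT and 46.4% with PCR. After quantile normalization of the 4 slides the split was 60.9% and 39.1%. All 92 and all 47 PCR-only probes remained in their classes after stretching. This was close to fixed in advance, since stretching enlarges the PCR ratios and leaves the 2IVT ratios as they are. It is therefore no test of these classes. Without PCR replicate 1 or 2, the 730 probes reported as early only by 2IVT fell to 420 or 429.

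**Figure D1:**
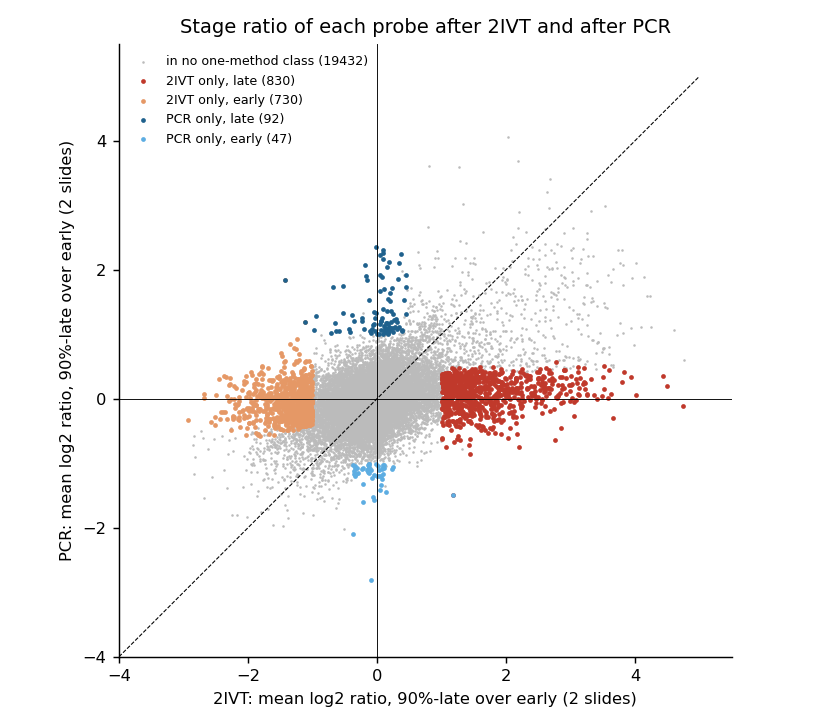
Mean log2 ratio of 90%-late over early for each of 21128 probes, after 2IVT on the horizontal axis and after PCR on the vertical axis, each over 2 slides; coloured points are the one-method classes, grey points all other probes, and the dashed line marks equal ratios. The 830 and 730 probes reported only after 2IVT lie along the horizontal axis, and the 92 and 47 reported only after PCR lie along the vertical one.

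The largest differences towards 90%-late after 2IVT came from genes whose mean log2 ratio was 1.07 or less after PCR. The locus AT1G31670 had log2 ratios of 4.29 and 5.21 after 2IVT, against 0.00 and -0.24 after PCR. The difference was 4.87 ± 0.28 (standard error; limma, adjusted p = 1.18e-05), the largest among the genes chosen for naming, and no 2IVT slide came near a PCR slide. The IVT slides gave 5.37 and 5.22 and the unamplified slides 2.33 and 2.25, so this gene was higher in 90%-late everywhere except after PCR.

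FOLB3, which encodes a dihydroneopterin aldolase of folate synthesis, read 4.72 and 4.80 after 2IVT, against 0.53 and 0.67 after PCR, a difference of 4.16 ± 0.19 (adjusted p = 6.38e-06). AOP3, a dioxygenase that modifies glucosinolate side chains, read 4.32 and 4.56 after 2IVT, against 0.22 and 0.47 after PCR, a difference of 4.09 ± 0.20 (adjusted p = 6.7e-06). Both genes were also steeply higher in 90%-late without amplification, FOLB3 at 4.88 and 5.23 and AOP3 at 5.38 and 4.63. After PCR the ratio of AOP3 did not pass the test (adjusted p = 0.105) and that of FOLB3 passed at a mean of 0.60 (adjusted p = 0.0107), which left FOLB3 just outside the class reported by 2IVT only.

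The other named loci with the largest differences towards 90%-late were AT1G35970, AT5G55410, AT1G03106, AT4G30880, AT5G64190, AT4G18650 and AT4G14980, with mean log2 ratios between 3.05 and 4.60 after 2IVT and between -0.27 and 1.07 after PCR. AT5G55410 kept a called ratio of 1.07 after PCR (adjusted p = 0.00164), beside 4.60 after 2IVT and 7.76 and 7.64 on the unamplified slides. AT4G14980 stood apart from the rest: its 2.99 and 3.11 after 2IVT and its 3.01 and 3.43 after IVT had no counterpart on the unamplified slides, which read 0.13 and -0.11 (adjusted p = 0.935). Higher only after 2IVT were further AT1G03103, at 3.05 and 4.15 after 2IVT against -0.05 and 0.96 after PCR, and AT5G45690, at 3.34 and 3.71 after 2IVT against 0.86 and 0.15 after PCR.

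LEA proteins were among the genes read differently by the methods. This list and those below were chosen with earlier results of these data known. Their shares beside those of all probes are therefore descriptive and no test of a list. All 6 probes annotated as LEA proteins differed between the methods, 5 towards 90%-late after 2IVT and 1 towards early, against 11.4% and 11.7% of all probes tested, and their median difference was 1.16 beside -0.03 over all probes. LEA, a dehydrin, had log2 ratios of 2.48 and 2.77 after 2IVT, against 0.08 and -0.00 after PCR (difference 2.59 ± 0.20, adjusted p = 2.44e-05). LEA4-5 had 2.36 and 2.84 after 2IVT, against -0.09 and 0.41 after PCR, and LEA18 had 1.37 and 1.67 after 2IVT, against 0.40 and -0.28 after PCR. These 3 genes belonged to the class reported as 90%-late only by 2IVT, which held 3.93% of all probes. The unamplified slides placed each of them at 2.19 or above. AtLEA4-1, at 1.54 and 1.96 after 2IVT, against 0.94 and 1.07 after PCR, was called by both methods.

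The remaining LEA members were not higher in 90%-late after either method. AT2G44060 read -0.06 and -0.22 after 2IVT, against -0.98 and -1.02 after PCR, and the unamplified slides, at -1.02 and -0.96, lay with PCR. AT2G46140 read -1.06 and -0.53 after 2IVT, against -0.12 and -0.10 after PCR (adjusted p of the difference 0.0486), and the unamplified slides, at -0.17 and -0.26, again lay nearer to PCR. The call for AT2G44060 was lost without either PCR slide. With the PCR ratios stretched or after quantile normalization, 4 of the 6 differed towards 90%-late and none towards early, and with each slide centred on its median the counts were 5 and none.

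Among plant defensins, small cysteine-rich secreted proteins, 3 of 7 tested differed towards 90%-late after 2IVT and none towards early, beside 11.4% and 11.7% of all probes. LCR27 had 2.66 and 2.95 after 2IVT, against 0.08 and 0.34 after PCR, and the unamplified slides gave 2.60 and 2.91. PDF1.3, at 0.84 and 1.32 after 2IVT, and PDF1.2c, at 0.61 and 1.05 after 2IVT, stood between -0.41 and 0.08 after PCR, but here the unamplified ratios, between -0.33 and 0.43, were nearer to PCR while the IVT ratios reached 3.11 to 3.81. Without either PCR slide the call for PDF1.3 was lost (adjusted p = 0.084 and 0.0658), and without PCR replicate 1 that for PDF1.2c (adjusted p = 0.0714). Over all alternatives the adjusted p ranged from 1.64e-05 to 0.084 for PDF1.3 and from 5.58e-06 to 0.0714 for PDF1.2c.

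Enzymes that conjugate or release sugars were also tested, in 1 list with serine carboxypeptidase-like proteins. Of 67 glycosyltransferases, β-glucosidases and serine carboxypeptidase-like proteins tested, 17 differed towards 90%-late after 2IVT, 3 towards early and 47 did not pass. The shares of all probes were 11.4% and 11.7%. Of the 67, 8 were reported as higher in 90%-late only after 2IVT, beside 3.93% of all probes. BGLU19, a β-glucosidase, had 3.58 and 3.86 after 2IVT, against 1.03 and 0.96 after PCR. UGT76E12, a UDP-glucosyl transferase, had 2.69 and 2.97 after 2IVT, against 0.45 and 0.23 after PCR. Without amplification BGLU19 read 3.12 and 2.70, nearer to 2IVT, and UGT76E12 read 0.94 and 1.12, nearer to PCR. The related transferases UGT85A3, UGT85A5 and UGT85A7 had mean log2 ratios of 2.72, 1.81 and 2.72 after 2IVT, against 0.28, 0.03 and 0.47 after PCR. On the unamplified slides these 3 genes lay between 0.08 and 0.84, much nearer to PCR, whereas the IVT slides, between 2.36 and 2.64, were nearer to 2IVT. Their loci are close neighbours on chromosome 1, and whether target of one binds the probe of another was not tested.

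Vacuolar processing enzymes, which cleave seed storage proteins in the vacuole, differed by member. BETA-VPE had 2.69 and 2.88 after 2IVT, against 1.04 and 0.44 after PCR (difference 2.04 ± 0.23, adjusted p = 0.000212). ALPHA-VPE had 2.78 and 2.64 after 2IVT, against 2.08 and 1.95 after PCR, and its difference of 0.69 ± 0.19 (adjusted p = 0.0256) turned to -0.54 (adjusted p = 0.144) when PCR was stretched and to -0.50 (adjusted p = 0.11) after quantile normalization. It also did not pass without 2IVT replicate 1 or without either PCR slide, and its adjusted p over all alternatives lay from 0.00549 to 0.16. GAMMA-VPE, at 0.08 and 0.04 after 2IVT, against 0.33 and 0.46 after PCR, and DELTA-VPE, at 0.07 and 0.05 after 2IVT, against -0.01 and 0.14 after PCR, did not pass the test of the difference. GAMMA-VPE was 2.58 and 2.67 without amplification, and neither 2IVT nor PCR called a stage difference for it.

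Of 42 wall enzymes tested, 7 differed towards 90%-late after 2IVT, 4 towards early and 31 did not pass, beside 11.4% and 11.7% of all probes. XTH29, a xyloglucan endotransglucosylase/hydrolase, had 1.73 and 1.82 after 2IVT, against 0.22 and -0.31 after PCR. Without amplification XTH29 read 0.37 and 0.43, nearer to PCR, whereas GH9B9 read -1.47 and -1.75, nearer to 2IVT. GH9B9, a glycosyl hydrolase, had -1.19 and -1.71 after 2IVT, against -0.28 and 0.01 after PCR, and lost its call without PCR replicate 2. Its relative GH9B15 had 3.64 and 3.89 after 2IVT but 3.19 and 1.03 after PCR, and its call (difference 1.66 ± 0.51, adjusted p = 0.0417) moved with the slide left out: the difference was 0.58 (adjusted p = 0.203) without PCR replicate 2 and 2.74 (adjusted p = 0.00561) without PCR replicate 1. It also did not pass with PCR stretched, at 0.37 (adjusted p = 0.786), after quantile normalization or with robust moderation, and its adjusted p over all alternatives lay from 2.66e-07 to 0.786.

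Towards early after 2IVT, many of the differences came from probes that PCR reported as flat. The locus AT5G36720 had -2.48 and -2.41 after 2IVT, against 0.30 and 0.31 after PCR (difference -2.75 ± 0.19, adjusted p = 1.8e-05). AT1G06340, AT1G12660, AT1G65870, AT3G46860, AT1G66940, AT5G51920 and AT3G56220 behaved alike, with mean log2 ratios from -2.38 to -1.96 after 2IVT and from 0.04 to 0.42 after PCR. The steepest ratios in the class reported as early only after 2IVT belonged to AT2G28140 and AT3G50560, each at -2.51 after 2IVT, followed by AT5G36720, AT1G06340, AT1G58460, AT3G46860, AT3G50800 and AT2G18980, down to a mean of -2.30 for AT2G18980. A second probe of AT2G18980 was in the same class, with a mean of -1.71 after 2IVT, against 0.03 after PCR. All of these loci were also called higher in early siliques on the unamplified slides, except AT1G12660, which read -0.16 and -0.11 there (adjusted p = 0.198).

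Genes with known roles in ovules, seeds and signalling were in this class, and those given here were chosen after their values were seen. INO, a YABBY transcription factor of the outer integument of the ovule, had log2 ratios of -1.76 and -1.85 after 2IVT, against 0.19 and -0.12 after PCR, and the unamplified slides gave -2.10 and -1.91. MPC, an imprinted gene expressed from the maternal copy in endosperm, had -1.99 and -2.13 after 2IVT, against -0.63 and 0.12 after PCR, and -1.88 and -1.79 without amplification. WSD1, a wax ester synthase, had -1.64 and -2.41 after 2IVT, against -0.77 and -0.35 after PCR. The signalling peptides RALFL28 and CLE40 had means of -2.02 and -1.73 after 2IVT, against -0.45 and 0.01 after PCR. For CLE40 the unamplified slides, at 0.07 and -0.42, lay nearer to PCR than to 2IVT.

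Transcription factors recognized by symbol showed more differences towards early than towards 90%-late. Of 77 tested, 5 differed towards 90%-late after 2IVT and 18 towards early, where 11.4% and 11.7% of all probes did, and the counts were 2 and 13 with PCR stretched and 2 and 16 after quantile normalization. Reported as early only after 2IVT were 7 of the 77, beside 3.46% of all probes. They were 5 MADS-box genes (AGL29, AGL36, AGL48, AGL85 and AGL96), the AUX/IAA gene IAA20 and bZIP52. Of these, AGL36, AGL85, AGL96 and bZIP52 are named after their values were seen. AGL29 had -1.67 and -1.21 after 2IVT, against 0.22 and 0.75 after PCR. Without amplification AGL29 read 0.05 and -0.61 and was not called (adjusted p = 0.158). AGL85, at -0.76 and -0.81, and bZIP52, at -0.68 and -0.84, were called higher in early there. AGL48 had -1.54 and -0.98 after 2IVT, against 0.52 and 0.66 after PCR, and was called in opposite directions by the methods. Without amplification AGL48 was slightly higher in 90%-late, at 0.29 and 0.35 (adjusted p = 0.0173), whereas the IVT slides, at -1.02 and -1.16, lay with 2IVT. AGL36 had -1.07 and -1.64 after 2IVT, against -0.24 and -0.18 after PCR, and AGL96 had -0.85 and -1.56 after 2IVT, against 0.16 and 0.04 after PCR.

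The auxin response repressor IAA20 had -1.61 and -0.84 after 2IVT, against 0.15 and 0.46 after PCR, while its relative IAA29 went the other way, with 1.61 and 1.58 after 2IVT, against 0.26 and -0.06 after PCR. The call for IAA20 was lost without PCR replicate 2. For IAA29 the unamplified slides read -0.00 and 0.09 and the IVT slides 1.05 and 1.31. AGL62, a MADS-box factor that holds back cellularization of the endosperm, had -1.001 and -0.70 after 2IVT, against 0.17 and 0.26 after PCR, and lost its call without PCR replicate 2 (adjusted p = 0.0611), with a range from 4.61e-05 to 0.0611 over the alternatives.

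Of the 5 endosperm markers tested, 2 differed towards early after 2IVT, AGL62 and AT5G46950, and 1 towards 90%-late, the expansin EXPA21. For these small lists the shares over all probes are 11.7% towards early and 11.4% towards 90%-late. AT5G46950 had -2.14 and -1.72 after 2IVT, against -0.91 and -0.97 after PCR, and EXPA21 had -0.28 and -0.65 after 2IVT, against -1.32 and -1.20 after PCR. Both calls were lost without either PCR slide, that for EXPA21 also without 2IVT replicate 1 and that for AT5G46950 also with PCR stretched and after quantile normalization. PHE1, at -0.67 and -0.27 after 2IVT, against -0.12 and 0.15 after PCR, did not pass. Nor did AT2G41000, at -0.32 and -0.07 after 2IVT, against 0.29 and 0.19 after PCR. AT5G46950, EXPA21 and AT2G41000 are on the list because of reporter lines. The study did not find them endosperm-preferred in its own microdissected endosperm. The single tested gene of the seed coat list, BAN, did not pass either. That of the valve margin list, ALC, had -0.36 and -0.31 after 2IVT, against -1.06 and -0.78 after PCR, and its difference of 0.58 did not pass (adjusted p = 0.0554) but did with PCR stretched (1.15), after quantile normalization (0.92) and with median centring (0.61). The 1 embryo marker and 1 cyclin annotated had no value on at least 1 of the 4 slides. Of 5 core histones only HTB1, an H2B, passed, at -0.88 and -0.55 after 2IVT against 0.02 and -0.06 after PCR, and it lost its call with PCR stretched, after quantile normalization and without either PCR slide or 2IVT replicate 1. Of 8 photosystem and antenna probes 1 passed, PSAE-1, which lost its call without 2IVT replicate 1 and without either PCR slide. Of 2 pectin methylesterase probes 1 passed, AT4G02300, and of 3 flavonoid genes none did.

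Of 18 cytochromes P450 tested, enzymes that oxidize many plant metabolites, 5 differed towards 90%-late after 2IVT and 3 towards early, beside 11.4% and 11.7% of all probes, and with PCR stretched 3 differed in each direction. CYP71B23 and CYP71B36 had means of -1.84 and -1.02 after 2IVT, against 0.22 and 0.11 after PCR, and CYP71B26 and CYP71B37 had means of 1.16 and 1.06 after 2IVT, against -0.35 and -0.05 after PCR. All 4 were thus reported by 2IVT only, 2 in each direction, in classes that held 3.93% (90%-late) and 3.46% (early) of all probes. Some of these calls were lost without a PCR slide: CYP71B26 without replicate 2, and CYP71B36 and CYP71B37 without replicate 1.

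**Figure D2:**
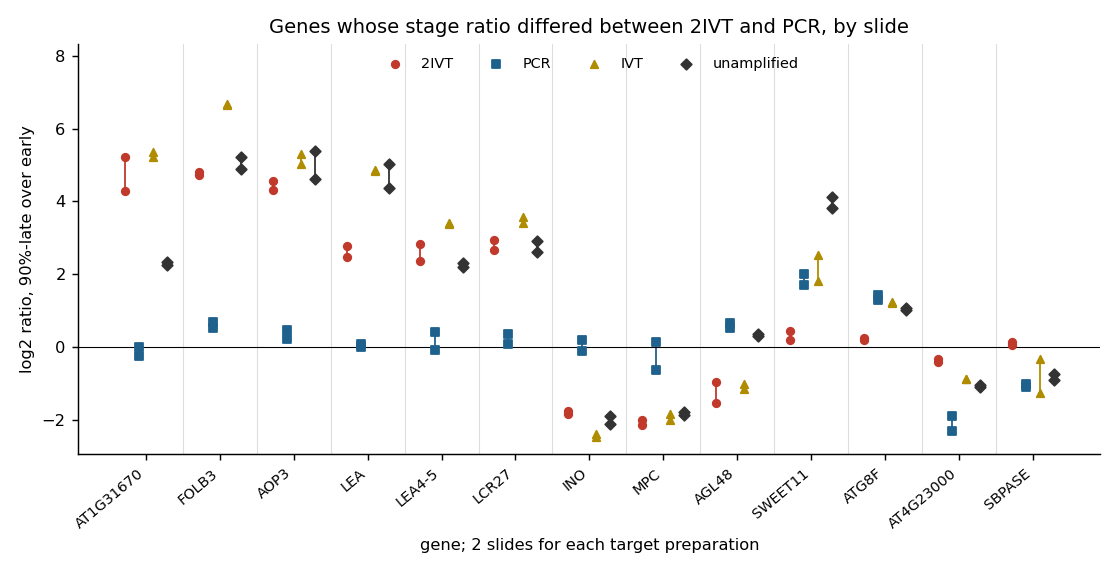
Log2 ratio of 90%-late over early for 13 genes on each slide, after 2IVT (circles), PCR (squares), IVT (triangles) and without amplification (diamonds), with a line joining the 2 slides of a preparation. From AT1G31670 to AGL48 the PCR slides lie between -0.63 and 0.67 while the 2IVT slides lie further out, and from SWEET11 to SBPASE it is the 2IVT slides that lie between -0.42 and 0.45.

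Genes reported by PCR and not by 2IVT made up a smaller set. SWEET11, a sucrose exporter, had log2 ratios of 0.45 and 0.19 after 2IVT, against 1.69 and 2.01 after PCR (difference -1.53 ± 0.21, adjusted p = 0.000595). It read 1.81 and 2.52 after IVT and 4.13 and 3.82 on the unamplified slides. ATG8F, a ubiquitin-like protein of autophagy, had 0.24 and 0.18 after 2IVT, against 1.43 and 1.28 after PCR, and 1.02 and 1.07 without amplification. The serine carboxypeptidase-like gene scpl48 had 0.40 and 0.14 after 2IVT, against 1.31 and 1.14 after PCR, and 2.95 and 2.67 without amplification. The α-tubulin TUA1 had -0.04 and -0.02 after 2IVT, against 1.10 and 1.42 after PCR. ATG8F, scpl48 and TUA1 were chosen after their values were seen.

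The 8 loci that led the class of 90%-late genes reported only by PCR were AT1G62000, AT3G43660, AT2G20820, SWEET11, AT5G14680, AT1G19410, AT1G62080 and AT1G10095. They were not all of one kind on the other slides. AT3G43660, at 0.10 and 0.63 after 2IVT, against 2.38 and 2.11 after PCR, was higher in 90%-late without amplification, at 1.51 and 1.44. AT2G20820, at -0.29 and -0.04 after 2IVT, against 1.99 and 1.80 after PCR, and AT5G14680, at -0.20 and -0.10 after 2IVT, against 1.97 and 1.70 after PCR, were slightly lower in 90%-late without amplification, between -0.46 and -0.15. AT1G10095 was read unevenly, at -0.51 and -0.84 after 2IVT, against 2.95 and 0.52 after PCR. It was lower in 90%-late without amplification, at -0.26 and -0.59, and after IVT, at -0.44 and -0.24. Its difference of -2.41 became -1.20 without PCR replicate 1 and -3.62 without PCR replicate 2, and it did not pass with robust moderation of the variances (adjusted p = 0.0601, range from 1.31e-12 to 0.0601 over the alternatives).

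Higher in early only after PCR were, among others, AT4G23000, AT2G10940, AT1G32220, AT4G24780, AT5G14240, DER1, AT5G22580 and AT3G11000, the 8 with the steepest ratios. AT4G23000 led them with -0.33 and -0.42 after 2IVT, against -1.89 and -2.31 after PCR, and -1.11 and -1.04 without amplification. AT4G24780 had 0.01 and 0.12 after 2IVT, against -1.25 and -1.42 after PCR, and -1.55 and -1.32 without amplification. SBPASE, an enzyme of the Calvin cycle, had 0.12 and 0.06 after 2IVT, against -1.09 and -1.01 after PCR, and -0.76 and -0.92 without amplification. The β-tubulin TUB6 had 0.33 and 0.12 after 2IVT, against -1.16 and -1.03 after PCR, but -0.04 and 0.20 without amplification. The calls for DER1, a derlin, and for AT3G11000 were lost without 2IVT replicate 1 and without either PCR slide, and SBPASE and TUB6 were chosen after their values were seen.

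Outside these classes, AT5G44380 had the largest single excess after PCR of any named gene, with 0.75 and 0.88 after 2IVT, against 3.87 and 3.35 after PCR (difference -2.80 ± 0.22, adjusted p = 2.93e-05). Both methods called it higher in 90%-late. The IVT slides gave 0.90 and 0.41, and the 1 unamplified slide with a value gave 1.11, so that PCR was the preparation that stood apart.

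A run of neighbouring genes on chromosome 1 was read differently by the methods, gene by gene. The 7 loci of this list, which lie from AT1G62000 to AT1G62225, were over 64-fold higher in 90%-late on the unamplified slides, with log2 ratios of 7.36 to 9.69. All 7 were called in 90%-late after PCR, with means of 0.84 to 2.30, and 4 after 2IVT, with means of 0.09 to 3.98 over the 7. Of all probes, 10.8% were called in 90%-late after PCR and 17.9% after 2IVT. A closer comparison is with the 48 probes over 64-fold without amplification, which include these 7. Of those, PCR called 93.8% and 2IVT 77.1%. After 2IVT, AT1G62000 read 0.14 and 0.04, AT1G62060 read 0.13 and 0.08, and AT1G62080 read 0.72 and 0.18, and none of these passed. After PCR the same genes read 2.48 and 2.13, 1.82 and 1.58, and 2.11 and 1.36, and all were reported by PCR only. IVT gave them 0.89 to 3.53, still far under the unamplified ratios.

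Their neighbours went the opposite way. AT1G62210 had 4.06 and 3.89 after 2IVT, against 0.77 and 0.90 after PCR (difference 3.14 ± 0.19, adjusted p = 1.18e-05). AT1G62070 had 2.30 and 3.28 after 2IVT, against 1.51 and 1.60 after PCR, and AT1G62220 had 2.29 and 2.33 after 2IVT, against 1.41 and 0.74 after PCR. AT1G62225, at 1.40 and 1.17 after 2IVT, against 1.96 and 1.67 after PCR, did not pass the test of the difference (adjusted p = 0.0873). With PCR stretched, the differences of AT1G62070 and AT1G62220 did not pass and that of AT1G62225 did. Then 1 gene of the run differed towards 90%-late after 2IVT and 4 towards early, beside 2167 and 2073 of all 21128 probes. Leaving out a slide also removed calls: AT1G62070 without either PCR slide, AT1G62220 without PCR replicate 2, and AT1G62080 without PCR replicate 1. Another locus of the interval, AT1G62050, had 1.19 and 1.24 on the 2IVT slides and no value on either PCR slide, and so could not be compared. The gene list was formed from earlier results on these arrays, and whether target of one locus binds the probe of another was not tested.

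**Figure D3:**
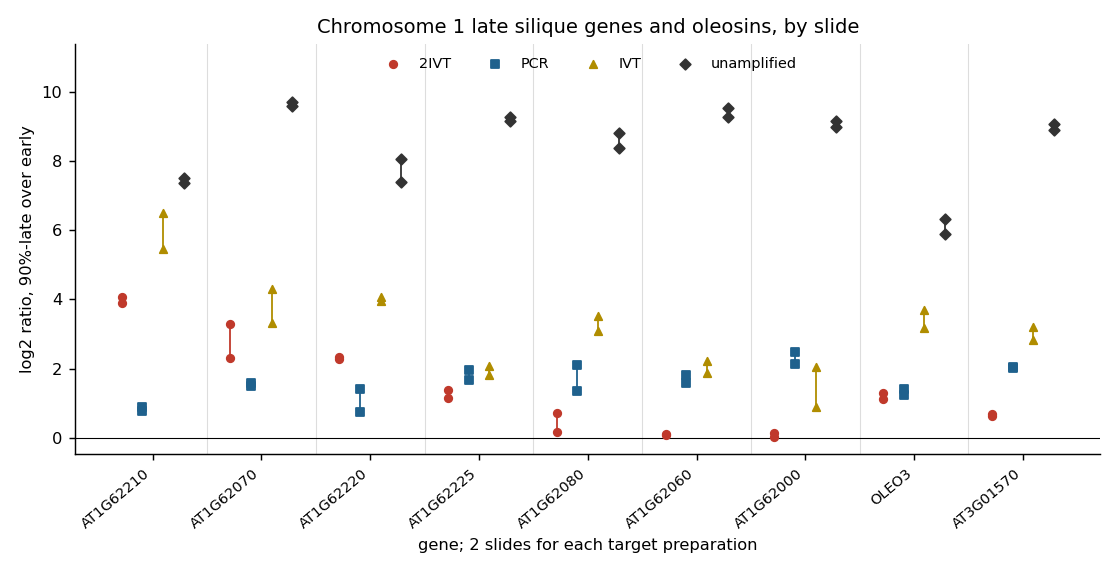
Log2 ratio of 90%-late over early for 7 neighbouring chromosome 1 genes and 2 oleosins on each slide, after 2IVT (circles), PCR (squares), IVT (triangles) and without amplification (diamonds), with a line joining the 2 slides of a preparation. All 9 genes are at 5.90 or above without amplification, and AT1G62080, AT1G62060 and AT1G62000 lie at or below 0.72 on the 2IVT slides.

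The oleosins, structural proteins of seed oil bodies, were flattened by both routes. OLEO3 had 1.31 and 1.14 after 2IVT, against 1.42 and 1.24 after PCR, a difference of -0.10 ± 0.19 (adjusted p = 0.736), beside 5.90 and 6.32 without amplification. The oleosin AT3G01570 had 0.70 and 0.64 after 2IVT, against 2.01 and 2.05 after PCR (difference -1.36 ± 0.19, adjusted p = 0.000641), beside 8.89 and 9.06 without amplification. With PCR stretched, both oleosins differed towards early after 2IVT.

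A set of probes was called by both methods in opposite directions. There were 82 such probes (0.388%) that were higher in 90%-late after 2IVT and higher in early after PCR, and 134 (0.634%) with the reverse pattern. AT5G62400 had 2.19 and 2.22 after 2IVT, against -0.47 and -1.02 after PCR, and the IVT slides gave 3.69 and 4.09 and the unamplified slides 0.82 and 0.64. AT5G66790 had 1.88 and 2.18 after 2IVT, against -0.58 and -0.63 after PCR, with no clear direction without amplification, at -0.35 and 0.17. In the reverse pattern, AT5G16340 had -1.19 and -1.05 after 2IVT, against 1.27 and 1.12 after PCR, and -1.29 and -1.69 without amplification, which is the direction of 2IVT.

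AT1G19410 is a case where the unamplified slides gave the direction of PCR. It had -0.52 and -0.52 after 2IVT, against 1.37 and 2.13 after PCR, and 2.24 and 1.77 without amplification, whereas the IVT slides, at -0.44 and -0.23, lay with 2IVT. AT1G33110 was alike, with -0.97 and -0.93 after 2IVT, against 0.87 and 1.71 after PCR, and 0.88 and 0.94 without amplification. Of the 80 probes of the first pattern with values there, the unamplified slides called 40 as 2IVT did and 7 as PCR did, and 33 were not called. Of 131 probes of the reverse pattern they called 44 as 2IVT did and 29 as PCR did, and 58 were not called. Of all probes, the unamplified slides called 21.1% as higher in 90%-late and 31.2% as higher in early. Both counts of the reverse pattern lay near these shares. IVT called 62 as 2IVT and 1 as PCR in the first pattern, and 101 and 4 in the reverse, beside 25.4% of all probes in 90%-late and 35.9% in early. Without PCR replicate 1 the opposite calls numbered 8 and 10, and without PCR replicate 2 they numbered 7 and 8.

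The slides that did not choose the one-method probes gave a separate reading of them, although the RNA was the same. These calls came from a fit of the IVT and unamplified slides alone over 23174 probes, in which IVT called 25.4% of probes as higher in 90%-late and 35.9% as higher in early, and the unamplified slides 21.1% and 31.2%. Of 814 probes reported as 90%-late only after 2IVT and measured there, the unamplified slides called 650 (79.9%) in the same direction and 13 in the other. Of 715 reported as early only after 2IVT, they called 572 (80%) in the same direction and 12 in the other. Of the PCR-only probes, they called 60 of 92 (65.2%) in 90%-late, with 11 the other way, and 31 of 47 (66.0%) in early, with 2 the other way. All 4 shares were above the shares of all probes.

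IVT, which shares its chemistry with 2IVT, called 801 of the 814 (98.4%) and 689 of the 715 (96.4%) in the direction of 2IVT. For the PCR-only probes it called 45 of 92 (48.9%) and 28 of 47 (59.6%) in the direction of PCR. The median unamplified log2 ratio was 0.92 for the 90%-late class of 2IVT and 0.90 for that of PCR, so the medians without amplification were close to each other. After IVT the medians were 1.79 and 0.30. In early siliques the unamplified medians were -0.76 for the 2IVT class and -0.50 for the PCR class.

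**Figure D4:**
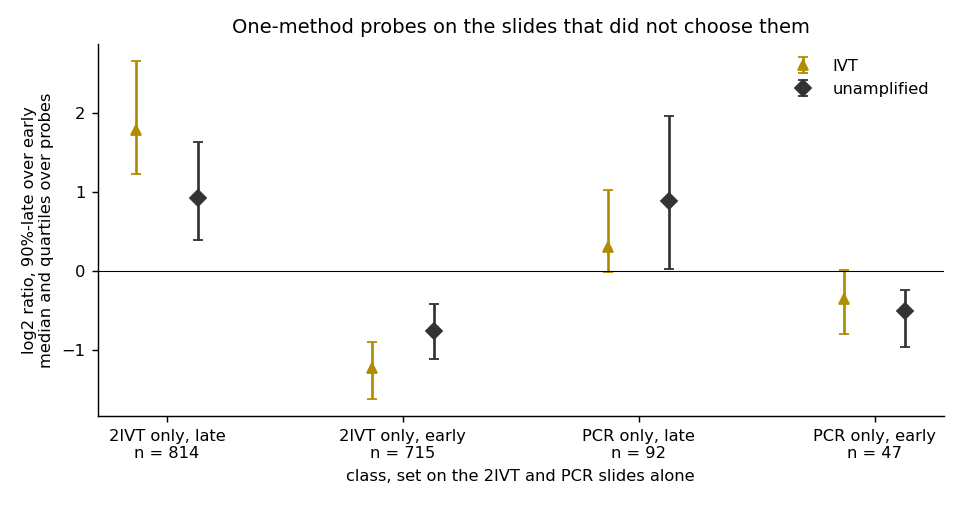
Log2 ratio of 90%-late over early of the one-method classes on the IVT slides (triangles) and the unamplified slides (diamonds), which took no part in forming the classes; symbols are medians over the n probes of a class and bars reach the quartiles. The 90%-late class of 2IVT has medians of 1.79 after IVT and 0.92 without amplification, and that of PCR has 0.30 and 0.90.

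The question can also be turned round by picking probes on the unamplified slides and asking which method called them. Of 1348 probes called at least 2-fold higher in 90%-late without amplification, 649 were called by both methods, 510 by 2IVT and not PCR, 116 by PCR and not 2IVT, and 73 by neither. Of 923 such probes in early, 415 were called by both methods, 396 by 2IVT and not PCR, 53 by PCR and not 2IVT, and 59 by neither. The early siliques mixed into the 90%-late sample put a ceiling on the early ratios only.

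The balance changed with the size of the unamplified ratio. At 4-fold to 8-fold in 90%-late, 2IVT called 94.4% and PCR 54.6% of 249 probes, with median log2 ratios of 2.12 after 2IVT and 0.54 after PCR. At 8-fold to 64-fold, 2IVT called 93.6% and PCR 74.0% of 173 probes. Over 64-fold the order was the other way, with 77.1% called by 2IVT and 93.8% by PCR of 48 probes, of which 2 were called by 2IVT and not PCR and 10 by PCR and not 2IVT. The median log2 ratio in this last group was 2.34 after 2IVT and 1.73 after PCR, and of the 48 probes 20 differed towards 90%-late after 2IVT and 13 towards early. The 37 and 45 probes called over 64-fold became 37 to 40 and 35 to 47 when each of the 4 slides was left out, and without PCR replicate 1 the order reversed, with 37 by 2IVT and 35 by PCR. At 4-fold to 8-fold, the 136 probes called by PCR became 77 without PCR replicate 1 and 75 without PCR replicate 2.

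Of the 27 probes over 64-fold that carried a gene symbol, 22 were called by both methods, 3 by PCR and not 2IVT, namely AT1G62000, AT1G62060 and AT1G62080, and 2 by 2IVT and not PCR, namely AT2G05580 and AT1G03103. AT2G05580 had 2.90 and 3.10 after 2IVT, against 0.07 and -0.15 after PCR. PAP85, a vicilin-like seed storage protein, had 1.48 and 1.49 after 2IVT, against 0.56 and 0.60 after PCR, and the sugar transporter SAG29 had 1.84 and 0.74 after 2IVT, against 2.45 and 2.45 after PCR. Without amplification PAP85 read 6.20 and 7.08 and SAG29 read 6.03 and 6.16, so both were compressed by each method. PAP85 and SAG29 were named after their values were seen.

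**Figure D5:**
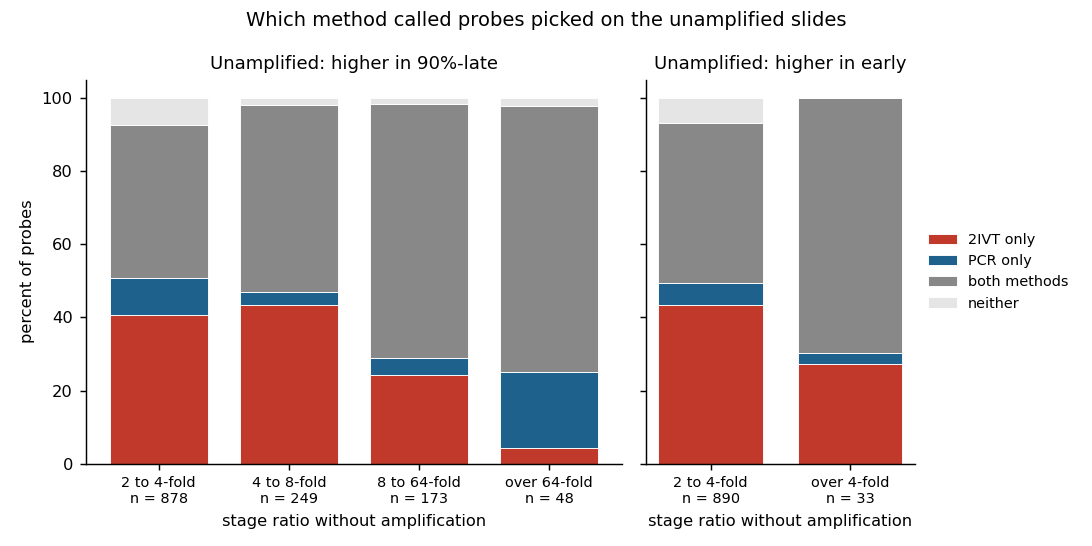
Percent of probes called in the direction of the unamplified slides by 2IVT only, PCR only, both methods or neither, for probes grouped by their stage ratio without amplification; the left panel holds probes higher in 90%-late and the right panel those higher in early siliques, with n probes under each bar. The 2IVT-only share is 43.4% at 4-fold to 8-fold and 4.17% over 64-fold in 90%-late, where the PCR-only share is 20.8%.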

How the data were processed

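The authors deposited 1 table of log2 ratios per probe and slide, Cy5 (early) over Cy3 (90%-late), from GenePix intensities normalized within each slide by their global mean and by local means over the surface and over intensity. The sources used here do not say if dim spots had been trimmed at that point. The sign was turned so that positive values are higher in 90%-late. Samples were grouped by title. The 2 slides of a method are labelled as separate samples of 1 RNA pair, so p-values measure only target preparation and hybridization. After 2IVT and PCR they leave out the amplification of the 90%-late RNA, which both slides share. The number of slides limits the precision, and 22733 to 23795 probes had values on each of the 4 slides.

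The fit was limma 3.58.1 in R 4.3.3 (lmFit and eBayes) on 21128 probes, with a mean per method, the contrast 2IVT minus PCR and Benjamini-Hochberg adjustment over all probes at 0.05. A second fit took the IVT and unamplified slides over 23174 probes. Scripts were tested on simulated data. Equal slide numbers did not pair the slides (correlation of deviations -0.0338). Probes were named by the symbols or loci in the platform annotation, updated through RefSeq: 14539 carried 1 symbol. Genes named were the 10 largest differences in each direction with slides apart, the 8 steepest of each one-method class, the 4 largest opposite calls in each direction, and up to 4 members of each gene list that passed, plus the chromosome 1 run. Members and lists were chosen with earlier results of these data known, and list loci with neither a RefSeq symbol nor a name in the study were dropped. Alternatives were all 8 slides in 1 fit, slide number as a block, centring, stretching PCR ratios by 1.61, quantile normalization, robust moderation, other fold limits, loci in place of probes and each slide left out.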

Additional observations from a re-analysis of the deposited data

Results flagged for a closer look

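The difference between the stage ratios after 2IVT and after PCR was tested for each probe, and the results below are those in which both methods called a stage difference with opposite signs. There were 82 probes higher in 90%-late after 2IVT and in early after PCR, and 134 probes with the reverse pattern. Of the named genes, the difference 2IVT minus PCR was 2.95 for AT5G62400, 2.63 for AT5G66790, 2.53 for AT2G37530 and 2.48 for AT1G54890. In the reverse pattern it was -2.31 for AT5G16340, -2.27 for AT1G19410, -2.27 for AT2G17080, -2.24 for AT1G33110 and -1.84 for AGL48. AT2G37530 had log2 ratios of 1.89 and 2.25 after 2IVT, against -0.39 and -0.53 after PCR, and 0.86 and 1.32 without amplification. AT2G17080 had -1.91 and -1.64 after 2IVT, against 0.29 and 0.70 after PCR, and 0.08 and -0.48 without amplification. AT1G54890 had 1.93 and 1.93 after 2IVT, against -0.47 and -0.62 after PCR, and -0.03 and 0.52 without amplification.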

How the results depend on the processing

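Of 86 named genes, the call and direction of the difference were the same for all under the replicate block, median centring and a minimum of 3 values, and for 78 with PCR ratios stretched, 79 after quantile normalization, 84 with robust moderation and 85 with all 8 slides in 1 fit. ALPHA-VPE turned to -0.54 with stretching and -0.50 after quantile normalization. Calls of named genes were lost more often without a PCR slide than without a 2IVT slide. Without a PCR slide the spread came from the 2IVT slides alone, so the loss is not tied to the PCR values.

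Leaving out 1 slide at a time gave 1002 to 3120 differences towards 90%-late after 2IVT and 709 to 3161 towards early. The one-method classes ranged over 657 to 860 (2IVT, 90%-late), 420 to 897 (2IVT, early), 63 to 113 (PCR, 90%-late) and 39 to 68 (PCR, early). PCR called 431 to 3257 probes for 90%-late and 176 to 3776 for early, 2IVT 3060 to 3876 and 3707 to 4376, and opposite calls numbered 7 to 224 and 8 to 253. PCR called 75 to 159 of the probes at 4-fold to 8-fold without amplification.

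Stretching PCR gave 451 and 506 PCR-only probes, and PCR then called 3563 for 90%-late and 3992 for early. Quantile normalization gave 499 and 361 2IVT-only and 304 and 248 PCR-only probes. With all 8 slides in 1 fit, opposite calls rose to 203 and 285. Limits of 4-fold gave 197, 56, 10 and 2 in the order of the classes above, and limits of 1.5-fold and 1.2-fold gave 1109, 1253, 301 and 345. Loci in place of probes, with fewer features, gave 1242 and 1443 differences, classes of 434, 451, 42 and 20, stage calls of 2040 and 2637 for 2IVT and 1191 and 1175 for PCR, and 42 and 77 opposite calls. The cause of these shifts was not tested. With the replicate number as a block there were 2517 and 2590 differences and classes of 829, 728, 96 and 50, and the block moved no count by over 1.5 times. The alternatives for the stage calls, the opposite calls and the groups of probes chosen on unamplified slides were added after seeing the data.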

Other observations

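Probes with values from only one method took no part in the tests. A value on both 2IVT slides and on no PCR slide was found for 166 probes, of which 22 had a mean ratio of at least 2-fold towards 90%-late and 12 towards early. A value on both PCR slides and on no 2IVT slide was found for 511 probes, of which 12 and 4 reached that limit. Of the first kind, AT1G76230 had log2 ratios of 3.57 and 3.98, AT2G15010 had 3.46 and 3.75, AT4G27450 had 3.30 and 3.40, and HLL, a mitochondrial ribosomal protein needed for ovule growth, had -1.27 and -0.97. Of the second kind, AT1G66850 had 1.98 and 1.49, whereas AT1G75870, at 2.43 and 0.52, was high on 1 slide. These genes were chosen after their values were seen, and without intensities it cannot be said how bright the missing spots were.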
